A study of Mus musculus with 8 samples.

Results

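Cytochrome P450 families 1 to 3 are the heme enzymes that carry out most oxidation of drugs and other foreign compounds in the liver. The genes were taken by symbol from the array's annotation (Cyp1, Cyp2 or Cyp3, a subfamily letter and a number), with 1 probe set per gene, the one with the highest mean signal over all arrays. This gave 57 of the 22180 genes with a single symbol, in 16 subfamilies. Of the 57, 45 lay above the 40th percentile of all probe sets on 2 or more arrays and entered the tests, among 13845 genes in all.

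Primary hepatocytes of male C57Bl6J mice received DMSO, glucagon (100 nM), GW4064 (2 µM) or both agents for 6 h, and each treatment was measured on 2 arrays. Glucagon is the fasting hormone that acts on hepatocytes through cyclic AMP, and GW4064 activates the bile acid receptor FXR. The 2 arrays of a treatment belong to separate experiments, each made with the pooled cells of 3 mice, so n = 2 per group and each experiment is 1 pool of cells. The medium of every group, DMSO included, held 100 nM dexamethasone, a glucocorticoid, with glucose at 1 g/l, and the age of the mice is not given in the sources used here. The design asks whether glucagon, FXR activation or their combination alters expression in hepatocytes. All values below are log2 signals or differences between log2 signals, where 1 unit is a factor of 2, and signals are compared between arrays for 1 probe set and not between genes.

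These enzymes sit in the endoplasmic reticulum, receive electrons from P450 oxidoreductase and insert oxygen into lipophilic substrates, which conjugating enzymes and transporters then clear. In liver the Cyp1a genes are known as targets of the aryl hydrocarbon receptor, Cyp2b and many Cyp2c genes of the receptor CAR (Nr1i3), and Cyp3a genes of PXR (Nr1i2). Several members are known to be expressed mainly in the hepatocytes around the central vein, and others mainly in 1 sex.

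Genes outside the families show what the same arrays registered. Ppargc1a, a coactivator known to respond to cyclic AMP, had signals of 3.13 and 4.11 with DMSO and of 6.54 and 7.03 with glucagon (experiments 1 and 2), and rose by 3.46 (SE 0.30, limma adjusted p = 0.00589) with glucagon, averaged over the arrays without and with GW4064. Of the marker genes on the array, 8 of 8 of hepatocytes passed the filter, as did 6 of 7 of macrophages, 6 of 7 of endothelium, 3 of 7 of stellate cells, 3 of 5 of cholangiocytes and 3 of 6 of leukocytes. Cd68 and Marco of macrophages, Sox9 and Epcam of cholangiocytes, and Reln, Dcn and Acta2 of stellate cells were above the 40th percentile on all 8 arrays. So were Nkg7 and S100a9 of leukocytes and the 6 endothelial markers that passed the filter. Among the latter, Lyve1 ranged from 6.19 to 7.57 and Cdh5 from 6.15 to 6.94. Other markers of the same lists were not: Adgre1 (2.89 to 3.19) and Csf1r (2.94 to 3.31) of macrophages and Krt19 (2.99 to 3.48) of cholangiocytes lay near it. Lrat, Des and Col3a1 of stellate cells and Cftr of cholangiocytes were below it on all arrays. Which cells gave these signals was not tested. The GW4064 array of experiment 2 stood apart: 9.24% of all genes lay over 0.5 outside the range of the other 3 arrays of its experiment, against 0.101% to 0.607% for the other 7 arrays. For the members this was 6 of 45 on that array, namely Cyp2c65, Cyp3a16 and Cyp3a44 above the range and Cyp2a4, Cyp2c37 and Cyp2c39 below it, with 1 of 45 on the DMSO array of experiment 1 (Cyp3a44, against 0.224% of all genes), 2 of 45 on the array of both agents in experiment 2 (Cyp2c55 and Cyp3a25, against 0.303%) and 0 on the others.

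No member passed the test in any treatment comparison over all 8 arrays. Glucagon averaged over both GW4064 states was called for 0 of the 45 members by limma (adjusted p below 0.05), against 1.32% of all genes tested (183 genes). At an unadjusted p below 0.05 it picked 1 member, Cyp2c55, against 14.5% of all genes. For GW4064 averaged over both glucagon states the calls were 0 of 45 members and 0% of all genes, with 0 members and 1.56% of all genes at the unadjusted threshold. Against DMSO, glucagon alone called 0 of 45 members (0.116% of all genes), GW4064 alone 0 of 45 (0% of all genes) and both agents 0 of 45 (0.123% of all genes), with 0, 1 (Cyp2c65) and 1 (Cyp2c55) members at the unadjusted threshold, where 6.7%, 2.69% and 6.22% of all genes lay. Both agents against glucagon and the interaction of the agents also called 0 of 45 members and 0% of all genes each, with 0 and 2 members (Cyp2c37 and Cyp3a59) at the unadjusted threshold, against 0.65% and 1.08% of all genes. With the experiment entered as a block, which compares arrays within a cell pool, the 7 comparisons again called 0 members, while the share of all genes called was 0.925% for glucagon against DMSO, 0.737% for both agents against DMSO, 5.76% for glucagon averaged over GW4064 and 0% in the other 4. The lowest adjusted p of any member was 0.324 without the block and 0.128 with it, both for glucagon averaged over GW4064, for Cyp2c55 and Cyp3a13.

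A left-out array changed calls in these fits. Cyp2c65, named here and above, passed the filter on 2 arrays only, 1 of them the GW4064 array of experiment 2 (4.08). That was its highest signal, so its GW4064 differences draw on the array that let it into the tests. Without the GW4064 array of experiment 1, GW4064 rests on the array that stood apart, and GW4064 against DMSO called 1 member, Cyp2c65 (1.23 higher, adjusted p = 0.0271), against 2.93% of all genes. With the block and without that array the calls were 3 members for GW4064 against DMSO (Cyp2a4, Cyp2c39 and Cyp2c65, against 8.87% of all genes), 7 for glucagon averaged over GW4064 (17.2%) and 2 for the interaction (1.89%). With the block and without the GW4064 array of experiment 2 instead, the only member called was Cyp3a13. It was 0.51 lower with glucagon averaged over GW4064, as described below with the share of all genes.

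The intervals come from the model without the block, so the difference between the cell pools widens them. For glucagon averaged over GW4064 (4 arrays against 4) the 95% interval of a member reached 0.35 to either side of its difference in the median, with 0.19 as the narrowest and 1.33 as the widest. The whole interval lay within 1 unit of no difference for 41 of 45 members. For GW4064 averaged over glucagon this held for 42 of 45, and for the comparison of glucagon alone with DMSO (2 arrays against 2) for 36 of 45. With the block the median reach for glucagon averaged over GW4064 was 0.25, and the interval lay within 1 unit for 42, 44 and 42 of 45 members in these 3 comparisons. The median difference with glucagon was -0.02 over the members and -0.00 over all genes, and 19 of 45 members had a positive value. The median size of the difference, whatever its sign, was 0.08 over the members and 0.13 over all genes for glucagon, and 0.07 and 0.07 for GW4064. A difference larger than 0.5 was seen in 1 member with glucagon (Cyp3a44, against 6.2% of all genes) and in 1 with GW4064 (Cyp3a25, against 0.311%). Both sizes depend on single arrays: with 1 array left out in turn, the Cyp3a44 difference ran from -0.76 to -0.28 and the Cyp3a25 difference from 0.20 to 0.87.

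**Figure D1:**
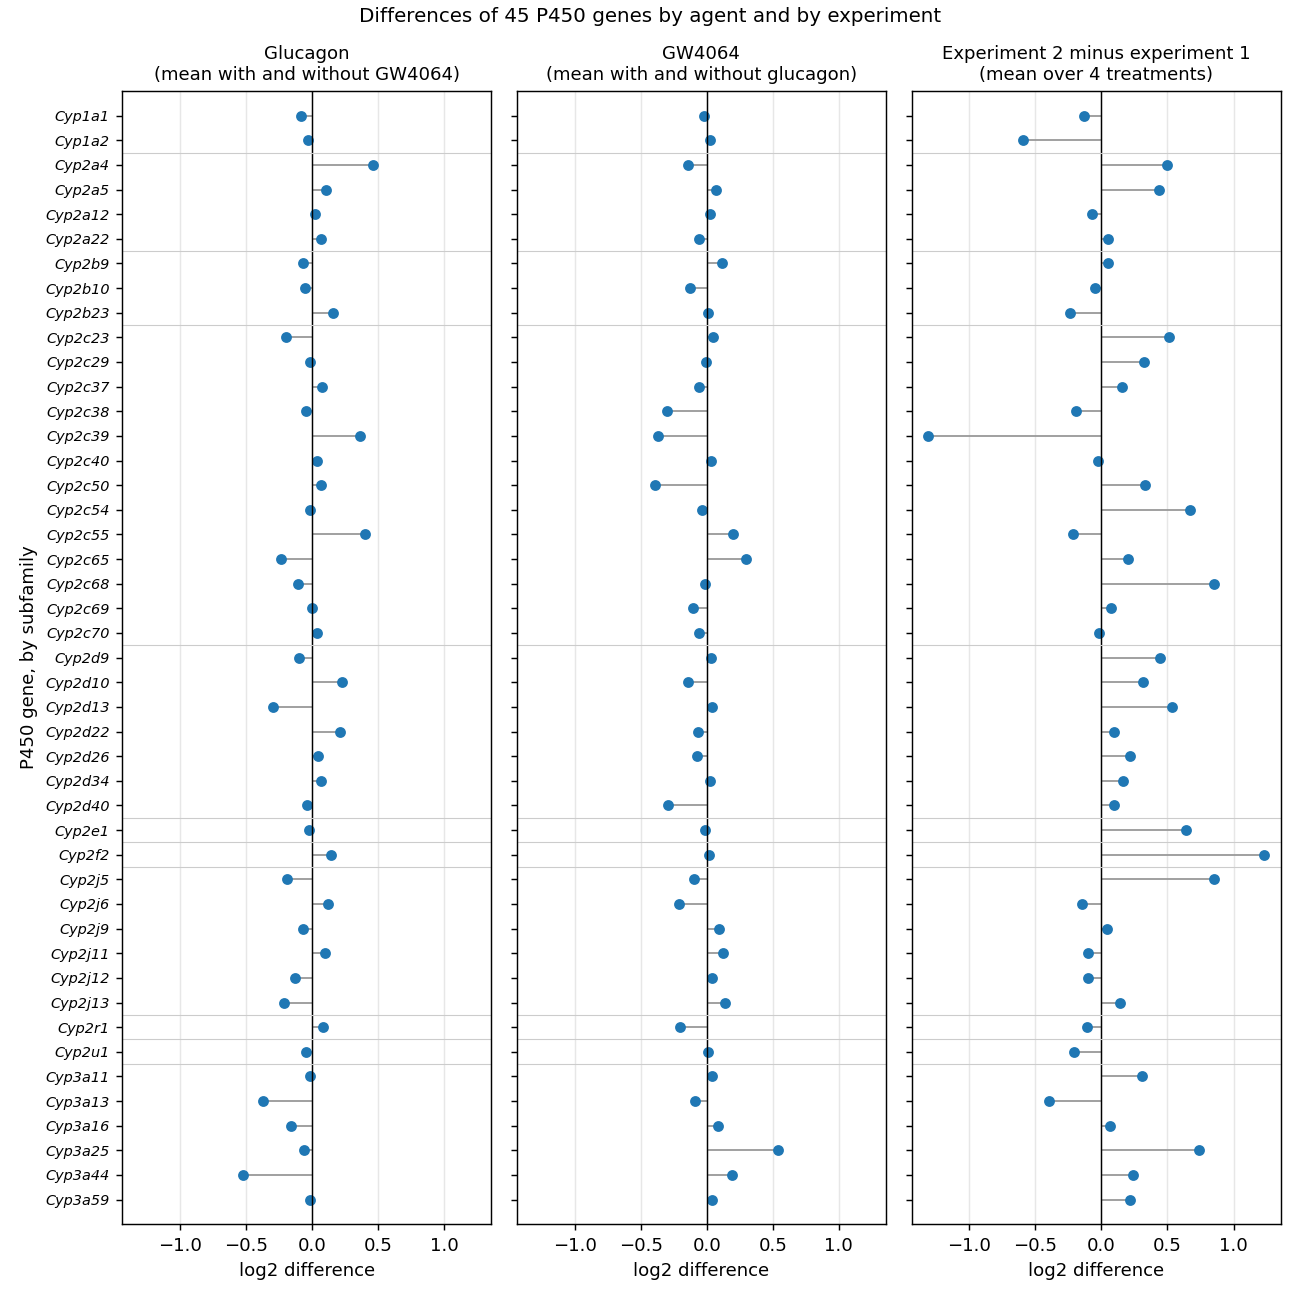
Log2 differences of the 45 tested P450 genes, ordered by subfamily, for glucagon (left), GW4064 (middle) and experiment 2 minus experiment 1 (right), each point the mean difference over the matching arrays. Agent differences ran from -0.52 to 0.54, and differences between experiments from -1.31 (Cyp2c39) to 1.23 (Cyp2f2).

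The filter divides the families by subfamily. All members of Cyp1a (2 genes), Cyp2a (4), Cyp2e (1), Cyp2f (1), Cyp2r (1) and Cyp2u (1) were above it, as were 3 of 5 Cyp2b, 13 of 14 Cyp2c, 7 of 9 Cyp2d, 6 of 7 Cyp2j and 6 of 7 Cyp3a genes. The only members of Cyp1b, Cyp2g, Cyp2s, Cyp2t and Cyp2w were below it. The 12 genes below were Cyp1b1, Cyp2b13, Cyp2b19, Cyp2c66, Cyp2d11, Cyp2d12, Cyp2g1, Cyp2j8, Cyp2s1, Cyp2t4, Cyp2w1 and Cyp3a57, and 11 of them exceeded the 40th percentile (3.13 to 3.27 over the arrays) on no array. Just outside was Cyp2j8, above on 1 array (3.31 on the GW4064 array of experiment 2), and just inside was Cyp2c65, above on 2 (3.20 with glucagon in experiment 1 and 4.08 on the GW4064 array of experiment 2). This line is a filter and not a measured background, so nothing is said of whether these genes were expressed. Cyp1b1 and Cyp2s1, both better known outside hepatocytes, ranged from 2.76 to 3.03 and from 2.74 to 3.14. On all 8 arrays 35 members exceeded the line.

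**Figure D2:**
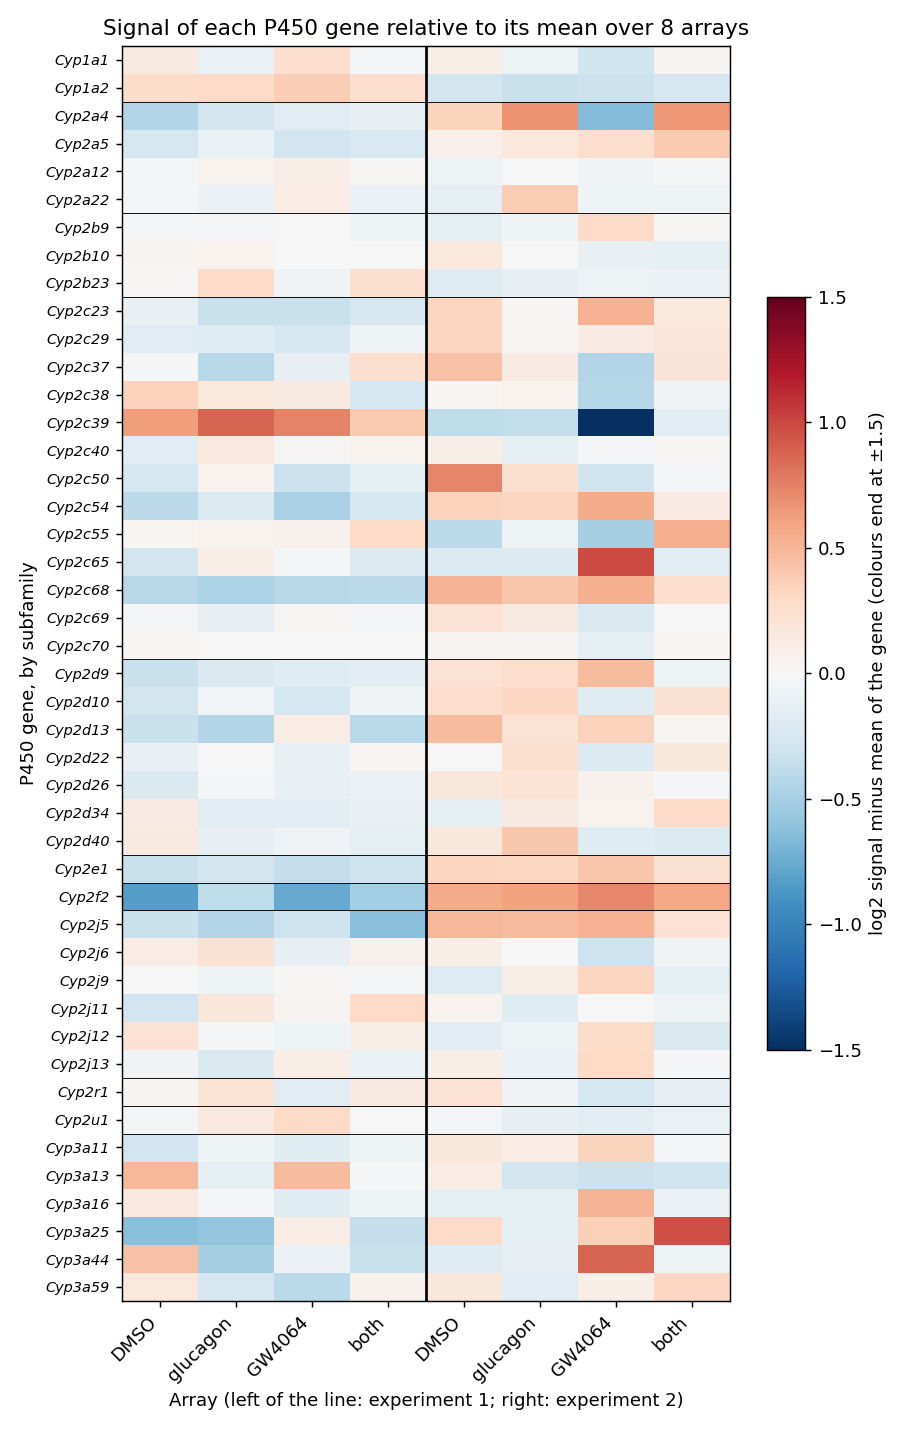
Log2 signal of each tested P450 gene on each array minus the gene's mean over 8 arrays, with red above and blue below the mean and colours ending at 1.5. Rows are genes by subfamily and columns are arrays, with experiment 1 left and experiment 2 right of the line; the darkest cell is Cyp2c39 on the GW4064 array of experiment 2.

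All 6 tested Cyp3a genes had a negative glucagon difference, from -0.52 (Cyp3a44) to -0.01 (Cyp3a59), with 0 of 6 called, also under quantile normalization and median centring. Some of them came close to the filter line: Cyp3a16 (3.30 to 3.98), Cyp3a44 (3.13 to 4.50, above the line on 7 arrays) and Cyp3a59 (2.94 to 3.67, above it on 6). The sign was not the same throughout: 2 of 6 were positive in experiment 1 alone (Cyp3a11 at 0.17 and Cyp3a59 at 0.03) and 1 of 6 in experiment 2 alone (Cyp3a25 at 0.10). With 1 array left out, up to 4 of 6 were positive, the 4 without the GW4064 array of experiment 2. Cyp3a13, a steroid and drug hydroxylase of liver and intestine, had the lowest adjusted p of the members once the experiment was a block. In experiment 1 its signals were 10.11 with DMSO, 9.47 with glucagon, 10.09 with GW4064 and 9.60 with both agents, and in experiment 2 they were 9.73, 9.34, 9.29 and 9.32. The glucagon arrays lay below the matching arrays without glucagon in 3 of 4 pairs, and the exception was the pair that holds the GW4064 array of experiment 2, where the values were within 0.02 of each other. The group means were 9.92 ± 0.27 (SD, n = 2) with DMSO, 9.41 ± 0.09 with glucagon, 9.69 ± 0.56 with GW4064 and 9.46 ± 0.20 with both. The difference with glucagon averaged over GW4064 was -0.37 (SE 0.19, 95% interval -0.83 to 0.08, limma adjusted p = 0.434, and 0.128 with the experiment as a block). Against DMSO alone it was -0.51 (SE 0.27, adjusted p = 0.847, and 0.266 with the block). With the block and without the GW4064 array of experiment 2, Cyp3a13 fell by 0.51 averaged over GW4064 (adjusted p = 0.0192), the only member called in that fit, where 10.5% of all genes were called.

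Cyp3a11, the main Cyp3a enzyme of adult mouse liver and the standard PXR target, gave signals of 9.99, 10.21, 10.10 and 10.21 in experiment 1 (DMSO, glucagon, GW4064, both) and of 10.45, 10.39, 10.62 and 10.26 in experiment 2. The treatments overlapped, and experiment 2 lay above experiment 1 throughout. The glucagon difference was -0.02 (95% interval -0.38 to 0.35) and the GW4064 difference 0.04 (-0.33 to 0.41). A pair of probe sets annotated to Cyp3a11 together with Cyp3a41a, Cyp3a41b and Cyp3a44 was left out because it has several symbols, and Cyp3a41a has no probe set of its own here.

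Cyp3a25, another Cyp3a gene of liver, had the highest GW4064 difference of the members. Its signals were 4.36, 4.40, 5.10 and 4.63 in experiment 1 (DMSO, glucagon, GW4064, both) and 5.27, 4.86, 5.34 and 5.96 in experiment 2. The arrays with GW4064 exceeded their partners without it in 4 of 4 pairs, by 0.74, 0.23, 0.07 and 1.10, and yet the groups overlapped because the experiments differed. Cyp3a25 was picked for a like sign in both experiments, which partly sets this count, as for other members picked by an agent difference. The difference averaged over glucagon was 0.54 (SE 0.33, 95% interval -0.24 to 1.31, adjusted p = 1). It was 0.20 without the array of both agents in experiment 2 and 0.31 without the DMSO array of experiment 1. Cyp3a44, known as a female-biased gene, had signals of 4.07, 3.13, 3.54 and 3.29 in experiment 1 and 3.44, 3.50, 4.50 and 3.56 in experiment 2. The DMSO array was the highest of experiment 1 and the GW4064 array the highest of experiment 2. Glucagon arrays differed from their partners by -0.94, -0.25, 0.06 and -0.95, so the large gaps are those against these high arrays. Its glucagon difference was -0.52 (95% interval -1.10 to 0.06, adjusted p = 0.389), and it was -0.36 without the DMSO array of experiment 1 and -0.28 without the GW4064 array of experiment 2.

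The promoters of Cyp3a11 and Cyp3a13 are shown with those of Cyp2f2, Cyp2j5, Cyp2e1 and Cyp1a2. The latter are some of the members whose levels separated the experiments, which are described below. Each is the 250 bases before the RefSeq gene start on assembly GRCm38.p6, written 5′ to 3′ on the gene's strand. The windows are chr5:145879855-145880104 (Cyp3a11, minus strand), chr5:137921620-137921869 (Cyp3a13, minus), chr7:27119705-27119954 (Cyp2f2, plus), chr4:96664120-96664369 (Cyp2j5, minus), chr7:140763569-140763818 (Cyp2e1, plus) and chr9:57683656-57683905 (Cyp1a2, minus). Capitals mark matches on either strand to TATAA (the core promoter element), TGACG (the core of the site of the cyclic AMP factor CREB), AGGTCA (the core of many nuclear receptor sites) or GCGTG (the core bound by the aryl hydrocarbon receptor), and TTATAA is counted as 2 overlapping TATAA matches.
Cyp3a11: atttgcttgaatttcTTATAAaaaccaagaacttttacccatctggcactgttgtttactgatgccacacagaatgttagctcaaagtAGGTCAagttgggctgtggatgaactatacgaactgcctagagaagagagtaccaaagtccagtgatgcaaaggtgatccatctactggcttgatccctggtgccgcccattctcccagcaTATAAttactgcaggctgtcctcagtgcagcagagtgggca
Cyp3a13: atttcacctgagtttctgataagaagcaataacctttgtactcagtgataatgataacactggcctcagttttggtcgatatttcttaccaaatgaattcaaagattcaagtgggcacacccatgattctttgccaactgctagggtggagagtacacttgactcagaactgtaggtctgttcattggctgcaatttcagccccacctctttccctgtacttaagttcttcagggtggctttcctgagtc
Cyp2f2: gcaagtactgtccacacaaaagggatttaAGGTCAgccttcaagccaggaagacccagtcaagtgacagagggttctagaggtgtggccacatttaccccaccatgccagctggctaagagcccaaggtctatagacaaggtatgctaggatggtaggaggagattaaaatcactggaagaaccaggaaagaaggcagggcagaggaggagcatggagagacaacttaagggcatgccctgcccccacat
Cyp2j5: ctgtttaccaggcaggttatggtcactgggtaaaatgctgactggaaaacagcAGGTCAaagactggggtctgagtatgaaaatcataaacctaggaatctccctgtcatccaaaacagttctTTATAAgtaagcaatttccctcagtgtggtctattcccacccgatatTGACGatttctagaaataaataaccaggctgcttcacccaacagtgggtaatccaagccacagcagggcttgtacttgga
Cyp2e1: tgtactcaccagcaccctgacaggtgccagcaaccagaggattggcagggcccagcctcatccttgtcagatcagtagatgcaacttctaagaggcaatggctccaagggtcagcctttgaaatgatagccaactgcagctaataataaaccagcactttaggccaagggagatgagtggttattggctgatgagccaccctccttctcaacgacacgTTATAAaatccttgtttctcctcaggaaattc
Cyp1a2: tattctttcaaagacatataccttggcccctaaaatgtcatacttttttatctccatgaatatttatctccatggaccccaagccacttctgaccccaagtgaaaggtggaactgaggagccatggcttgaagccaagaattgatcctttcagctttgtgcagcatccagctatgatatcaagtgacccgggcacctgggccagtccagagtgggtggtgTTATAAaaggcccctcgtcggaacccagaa
TATAA or its complement occurred in 29 of the 52 member windows (55.8%) and in 22.8% of all 32851 windows of this length in the table. It lies close to the start in Cyp1a2, Cyp2e1 and Cyp3a11, and only further upstream in Cyp2j5. AGGTCA occurred in 16 of 52 (30.8%, against 14.0% of all windows), among them Cyp3a11, Cyp2f2 and Cyp2j5. TGACG occurred in 2 of 52 (3.85%, against 17.8%), Cyp2j5 and Cyp2j9. GCGTG occurred in 9 of 52 (17.3%, against 28.2%), and Cyp1a2 was not among them. In the Cyp3a13 window 0 matches were found. The 52 windows belong to 49 of the 57 members, related genes share sequence, and a match is only a run of letters in this window.

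Cyp2b10, the classic CAR target, had signals of 11.30, 11.31, 11.27 and 11.25 in experiment 1 (DMSO, glucagon, GW4064, both) and of 11.42, 11.26, 11.15 and 11.11 in experiment 2. The arrays with GW4064 were the lowest in both experiments, by small steps. The GW4064 difference was -0.13 (95% interval -0.33 to 0.08) and the glucagon difference -0.06 (-0.26 to 0.15), so a change of 1 unit either way lies outside both intervals. The signals of Cyp2b10 spanned only 0.31 over the 8 arrays. Of this small variation the GW4064 term took 51.2% and the experiment 6.34%, and the GW4064 difference was not called. The other tested Cyp2b genes, Cyp2b9 and Cyp2b23, lay near the filter (3.11 to 3.53 and 3.05 to 3.53).

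Cyp1a2, which oxidises caffeine and aromatic amines, gave signals of 9.06, 9.07, 9.15 and 9.04 in experiment 1 and of 8.51, 8.45, 8.47 and 8.53 in experiment 2. Within an experiment the 4 treatments were nearly level, while all 4 arrays of experiment 2 lay below all of experiment 1. The glucagon and GW4064 differences were -0.03 (95% interval -0.58 to 0.53) and 0.02 (-0.53 to 0.58). Cyp1a1, the most inducible target of the aryl hydrocarbon receptor, ranged from 2.78 to 3.33 and exceeded the filter line on 3 arrays.

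All 4 Cyp2a genes had a positive glucagon difference, from 0.02 (Cyp2a12) to 0.46 (Cyp2a4), under both other scalings as well, with 0 of 4 called. In experiment 1 alone 2 of 4 were positive, and with 1 array left out 3 or 4 of 4 were. Cyp2a4, a female-biased testosterone hydroxylase, had signals of 5.53, 5.69, 5.81 and 5.85 in experiment 1 (DMSO, glucagon, GW4064, both) and of 6.30, 6.64, 5.32 and 6.62 in experiment 2. Glucagon arrays exceeded their partners in 4 of 4 pairs, by 0.16, 0.04, 0.34 and 1.30, and the widest gap was against the GW4064 array of experiment 2, the lowest of all 8. Its glucagon difference was 0.46 (95% interval -0.24 to 1.16, adjusted p = 0.538). Without that array it was 0.34, and 0.13 with the block. Cyp2a5, the coumarin hydroxylase, lay at 4.33 to 4.51 in experiment 1 and at 4.69 or above in experiment 2, with a glucagon difference of 0.11 (-0.34 to 0.56). Cyp2a12, a steroid hydroxylase, ranged only from 11.39 to 11.56 over the 8 arrays.

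Within Cyp2c, the largest subfamily, 6 of 13 tested genes had a positive glucagon difference (8 with quantile normalization) and 4 of 13 a positive GW4064 difference (6). Cyp2c55, which is known as inducible through CAR and PXR, had signals of 4.06, 4.08, 4.09 and 4.31 in experiment 1 (DMSO, glucagon, GW4064, both) and of 3.63, 3.94, 3.52 and 4.58 in experiment 2. The array with both agents was the highest in each experiment, and every glucagon array exceeded its partner. The glucagon difference was 0.40 (SE 0.16, 95% interval 0.02 to 0.79, adjusted p = 0.324, and 0.159 with the block), and both agents exceeded DMSO by 0.60 (adjusted p = 0.723). Another probe set of Cyp2c55 lay near the filter, above it on 4 arrays, and was highest on the DMSO array of experiment 1 (3.71). Its glucagon difference was -0.16, opposite in sign, and with the mean of both probe sets the difference of Cyp2c55 was 0.12 (unadjusted p = 0.452 and adjusted p = 0.771 by limma). Without the GW4064 array of experiment 2 the difference of the main probe set was 0.26.

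Cyp2c29, a CAR target, had signals of 9.61, 9.59, 9.52 and 9.71 in experiment 1 and of 10.10, 9.79, 9.89 and 9.95 in experiment 2. Neither agent separated the arrays, with differences of -0.02 (95% interval -0.37 to 0.33) for glucagon and -0.00 (-0.36 to 0.35) for GW4064. Cyp2c70, which makes the muricholic acids of mouse bile, held to 12.12 to 12.16 in experiment 1 and 11.98 to 12.17 in experiment 2, where the GW4064 array gave the lowest value. Its GW4064 difference was -0.06 (95% interval -0.25 to 0.13), and -0.03 without that array. Cyp2c50, an arachidonic acid epoxygenase, had the lowest GW4064 difference of the members, -0.39 (-0.88 to 0.10, adjusted p = 1). Its signals were 7.61, 7.93, 7.55 and 7.73 in experiment 1 and 8.61, 8.11, 7.57 and 7.84 in experiment 2. The GW4064 arrays lay below their partners in 4 of 4 pairs, by 0.06, 0.19, 1.03 and 0.27, and the difference was -0.14 without the DMSO array of experiment 2, the highest of all 8. Cyp2c38, another gene of the subfamily, ranged in experiment 1 from 4.58 with both agents to 5.18 with DMSO, with 4.96 for GW4064 and a value between the GW4064 and DMSO arrays for glucagon, and read 4.86, 4.89, 4.41 and 4.78 in experiment 2. The GW4064 arrays were again lower in 4 of 4 pairs, and the difference was -0.30 (-0.65 to 0.05), or -0.16 without the GW4064 array of experiment 2.

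**Figure D3:**
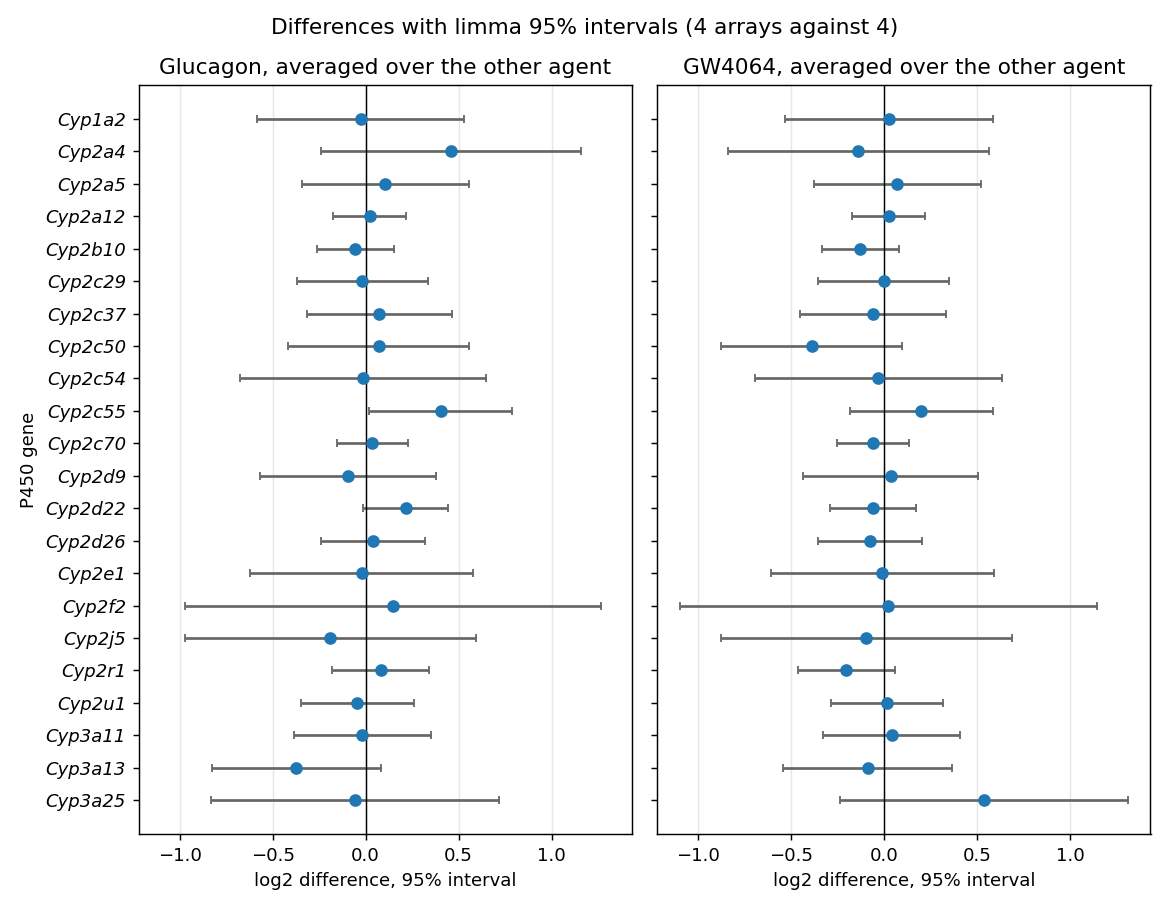
Log2 differences of 22 P450 genes with glucagon (left) and GW4064 (right), each averaged over the other agent, with limma 95% intervals as bars (4 arrays against 4). The glucagon interval of Cyp2c55 runs from 0.02 to 0.79, and those of the other genes drawn include 0; wide bars belong to genes such as Cyp2f2 whose level differed between the experiments.

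Cyp2d genes, relatives of the human debrisoquine hydroxylase, and Cyp2j genes, fatty acid epoxygenases, showed small treatment differences. Cyp2d22 had signals of 7.79, 7.90, 7.79 and 7.93 in experiment 1 (DMSO, glucagon, GW4064, both) and of 7.90, 8.15, 7.69 and 8.07 in experiment 2. Glucagon arrays were higher in 4 of 4 pairs, by 0.10 to 0.38, for a difference of 0.21 (95% interval -0.02 to 0.44, adjusted p = 0.373). Cyp2d13, a transcribed pseudogene in RefSeq, was lower with glucagon in 4 of 4 pairs, with a difference of -0.30 (-0.84 to 0.25). Cyp2j5, the main epoxygenase of its subfamily in mouse kidney and liver, was likewise lower in 4 of 4 pairs, with a difference of -0.19 (-0.97 to 0.59). Cyp2d40 had a GW4064 difference of -0.29 (-0.60 to 0.01), lower in 4 of 4 pairs, by 0.03 to 0.60. That difference was -0.16 without the glucagon array of experiment 2. None of these passed the test, without or with the block. Their intervals come from the fit without the block and include the difference between the cell pools: for Cyp2j5 the experiment took 92.2% of the variation among arrays. Cyp2d26 had signals of 9.57, 9.77, 9.67 and 9.69 in experiment 1 and 9.95, 9.99, 9.85 and 9.77 in experiment 2, with differences of 0.04 (-0.24 to 0.32) for glucagon and -0.08 (-0.35 to 0.20) for GW4064. Cyp2r1, which starts the activation of vitamin D, ranged from 6.86 to 7.35, and Cyp2u1, a fatty acid hydroxylase, from 4.84 to 5.30.

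Among the members the experiment was more often the largest source of variation between arrays than either agent was. Each experiment is 1 pool of cells, so no test is possible, and an experiment's 4 arrays are not replicates of it. All 4 arrays of experiment 2 exceeded all 4 of experiment 1 for 10 of 45 members (6.12% of all genes), and lay below them for 3 of 45 (8.27% of all genes). The median difference of experiment 2 minus experiment 1 was 0.10 over the members, 29 of 45 being positive, and -0.02 over all genes. The experiment took a median of 24.5% of the variation among arrays per member (18.3% over all genes), against 4.98% for glucagon (16.4% over all genes) and 3.49% for GW4064 (4.85%). Of the sources experiment, glucagon, GW4064 and interaction, the experiment was the largest in 23 of 45 members (39.5% of all genes), glucagon in 7 (36.4%), GW4064 in 10 (12.4%) and the interaction in 5 (11.7%). With 1 degree of freedom each, these shares are descriptions.

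Cyp2f2, the lung and liver enzyme that activates naphthalene, was the member farthest up in experiment 2. Its signals were 7.74, 8.19, 7.81 and 8.06 in experiment 1 (DMSO, glucagon, GW4064, both) and 9.12, 9.17, 9.29 and 9.14 in experiment 2. The groups of 4 did not overlap, and the mean difference was 1.23, the only one of at least 1 unit upward without overlap among the members (0.433% of all genes). The other Cyp2f2 probe set was also higher in experiment 2, by 0.75. Cyp2c39, a retinoic acid hydroxylase known as female-biased, was the only member at least 1 unit lower without overlap (0.188% of all genes), with signals of 6.24, 6.49, 6.37 and 6.01 in experiment 1 and 5.24, 5.26, 3.92 and 5.46 in experiment 2. Its difference of -1.31 depends on the GW4064 pair: it was -0.93 without either GW4064 array, which leaves 3 matched pairs.

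The other members without overlap differed by less. Cyp2j5 was 0.85 higher in experiment 2, with signals of 8.50, 8.39, 8.53 and 8.21 in experiment 1 and 9.33, 9.31, 9.36 and 9.05 in experiment 2, and its 4 treatment pairs gave nearly the same step, 0.82 to 0.92. Cyp2e1, which oxidises ethanol and acetaminophen, had signals of 10.93, 10.99, 10.91 and 10.96 in experiment 1 and 11.59, 11.58, 11.68 and 11.50 in experiment 2, a difference of 0.64. In both genes the treatments within an experiment lay close together and the experiments far apart. Cyp2c68 (0.85), Cyp2c54 (0.67), Cyp2c23 (0.51), Cyp2d9 (0.44), Cyp2a5 (0.44), Cyp2c29 (0.32) and Cyp3a11 (0.30) were also higher. A probe set shared by Cyp2c67 and Cyp2c68, outside the rule, read 8.85 to 8.95 in experiment 1 and 9.35 to 9.48 in experiment 2. Cyp1a2 (-0.59) and Cyp2b23 (-0.24) were lower, and all 7 tested Cyp2d genes had a positive difference, under the other scalings as well.

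**Figure D4:**
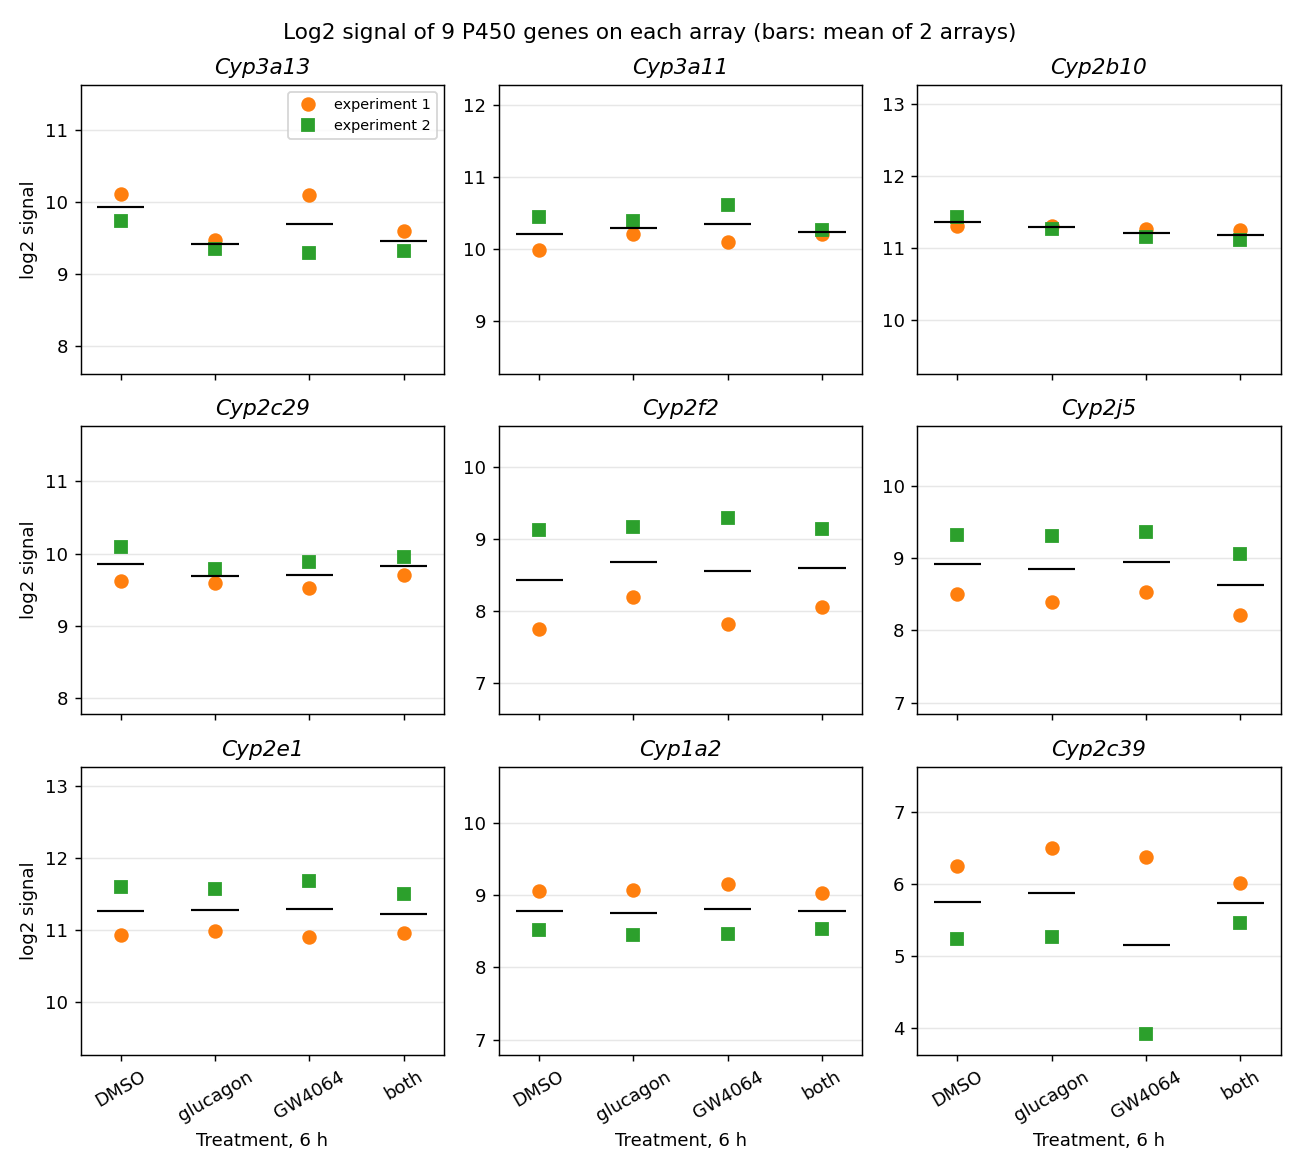
Log2 signals of 9 P450 genes by treatment, with circles for experiment 1, squares for experiment 2 and bars for the mean of the 2 arrays; every panel spans the same range of log2 units. Cyp2f2, Cyp2j5 and Cyp2e1 have all squares above all circles and Cyp1a2 and Cyp2c39 all below, while Cyp3a13 is lower with glucagon than with DMSO in both experiments.

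Members known from the hepatocytes around the central vein were 7 of 8 higher in experiment 2, with a median of 0.33, and the exception was Cyp1a2. Of them 5 were higher without overlap (Cyp2a5, Cyp2c29, Cyp2c54, Cyp2e1 and Cyp3a11). The direction was not particular to this list: of all 45 members 29 were higher, 10 of them without overlap. Cyp2f2 (1.23), Cyp2j5 (0.85) and Cyp2c68 (0.85), which are not in the list, exceeded its median. Over all genes 6.12% were higher and 8.27% lower without overlap, the shares to set beside each of the counts here. Members known as female-biased were 5 of 8 higher, with a median of 0.05. Hepatocyte markers differed in the same direction: 7 of 8 were higher in experiment 2, 5 of them without overlap, with a median of 0.25, among them Fabp1, the liver fatty acid binding protein (1.98), and Hnf4a, a liver transcription factor (0.81), while Alb differed by 0.10. Endothelial markers differed the other way: 0 of 6 were higher, 4 were lower without overlap and their median was -0.43, with Lyve1 at -1.02. Of the other markers, 4 of 6 macrophage genes (median 0.14), 2 of 3 stellate cell genes (0.67), 0 of 3 cholangiocyte genes (-0.20) and 3 of 3 leukocyte genes (0.10) were higher. Cd5l, Clec4g, Lrat, Des, Col3a1, Cftr, Cd3e, Ms4a1 and S100a8 were below the filter line on all arrays. The part of cell composition in the differences between experiments was not tested, and in RNA from a whole culture fewer cells of a type and less RNA per cell cannot be told apart.

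Other lists hold genes that supply and regulate these enzymes, and for glucagon averaged over GW4064 their counts stand beside 1.32% of all genes called without the block and 5.76% with it. In the list of heme synthesis and electron supply, 0 of 15 tested genes passed without the block. With the block, glucagon averaged over GW4064 raised Alas1, the first enzyme of heme synthesis, by 0.62 (adjusted p = 0.0382), and lowered Cpox, a later enzyme of the pathway, which fell by 0.47 (adjusted p = 0.0271). Alas1 read 8.34 and 9.30 with DMSO and 9.29 and 9.73 with glucagon (experiments 1 and 2), higher with glucagon within each experiment.

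Among receptors and factors 1 of 20 tested genes rose with glucagon and 0 fell, Ppargc1a, and with the block Foxa2, a liver transcription factor, rose too, by 0.62 (adjusted p = 0.0293). Nr1i2, which encodes PXR, read 5.97, 6.58, 7.30 and 8.11 in experiment 1 (DMSO, glucagon, GW4064, both) and 6.62, 7.33, 6.89 and 8.13 in experiment 2. The order was DMSO lowest and both agents highest in each experiment, without overlap between those groups. The difference of both agents from DMSO was 1.83 (SE 0.31, adjusted p = 0.157, and 0.0546 with the block), so it did not pass. Its known target Cyp3a11 differed by 0.02 in the same comparison (95% interval -0.50 to 0.54). Cyp2c55, known as inducible through CAR and PXR, was 0.60 higher there and did not pass either. Mean signals with DMSO and with both agents were 4.82 and 5.29 for Cyp3a25, and 9.92 and 9.46 for Cyp3a13. Whether the targets of PXR followed Nr1i2 was not tested. Nr1i3, which encodes CAR, lay near the filter at 3.03 to 3.52, and Ahr had a glucagon difference of 0.45 (adjusted p = 0.301).

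Among conjugating enzymes and transporters 1 of 34 tested genes rose with glucagon averaged over GW4064 and 0 fell: Slco1a4, an organic anion carrier, rose by 1.73 (SE 0.16, adjusted p = 0.00589). With the block Aldh1a1, a retinaldehyde dehydrogenase, rose as well, by 0.81 (adjusted p = 0.00357). Between experiments 13 of the 34 were higher without overlap in experiment 2 (6.12% of all genes) and 2 were lower (8.27% of all genes). Sult2a8, a bile acid sulfotransferase, differed by 1.90 and Abcc4, an efflux pump, by -1.36. In the P450 families 4 and above, which work mainly on sterols, bile acids and fatty acids, 1 of 21 tested genes rose with glucagon and 0 fell. It was Cyp51, the sterol demethylase of cholesterol synthesis, with a difference of 1.10 (SE 0.12, adjusted p = 0.0145), and its signals were 8.01 and 8.23 with DMSO and 9.19 and 8.91 with glucagon. With the block Cyp17a1, a steroid hydroxylase, rose too, by 1.19 (adjusted p = 0.0106). Whether these families respond differently from families 1 to 3 was not tested.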

How the data were processed

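The data are log2 signal values of 8 mouse gene arrays (MoGene 2.0 ST). Per the labels, the authors made these log2 values with GeneSpring software before they deposited them. No source used here names the normalization, the summary of probes or the background correction. The log2 scale was read from the range of the values (1.73 to 13.3). Per the labels' protocols 300 ng of RNA was labelled and 2 technical replicates were pooled per sample. The platform annotation gave 1 symbol for 23521 of 41345 probe sets, and the 57 members all matched RefSeq by gene identifier. The 3 P450 probe sets with several symbols were left out, and cross-hybridisation between related genes was not tested.

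Differences were fitted with limma 3.58.1 in R 4.3.3, with a mean for each of the 4 groups (4 residual degrees of freedom, 8 arrays) and Benjamini-Hochberg adjustment over 13845 genes in each of 7 contrasts. Tests are two-sided. An interval is limma's 95% interval of a difference, and "averaged over" means the mean of the difference with and without the other agent. Arrays of an experiment share a cell pool per the labels, and their deviations from the group means correlated at 0.35 to 0.62 over the 6 pairs of groups. The experiment as a block was therefore fitted beside the main model. The number of arrays limits the precision. The code was tested on simulated data.

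Named genes were those called in any contrast without or with the block, the 5 largest differences of each agent with the same sign in both experiments, the 5 largest differences between experiments, the brightest gene of each subfamily and a set panel, and list genes called or with the lowest p. Cyp2b23, Cyp2c23, Cyp2c65, Cyp2c67, Cyp2c68, Cyp2d10, Cyp2j8, Cyp2j9, Cyp3a16 and Cyp3a59 were named outside this rule, after their values were seen. So were Cyp2j6, Cyp2j13, the genes listed as below the filter, the marker genes and Sult2a8, Abcc4, Ahr and Nr1i3. The 5 members picked per agent had to share a sign in both experiments, so their counts of pairs are partly set by that choice. Among them are Cyp2a4, Cyp2c38, Cyp2c50, Cyp2c55, Cyp2d13, Cyp2d40 and Cyp3a25. The share of all genes with every pair alike was not counted. The members and lists were chosen with earlier results of these data known. Promoter windows came from a RefSeq table for 49 members.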

Additional observations from a re-analysis of the deposited data

How the results depend on the processing

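Every setting was compared with limma without the block, which called 0 members in each of the 7 treatment comparisons. With the experiment as a replicate block the count was again 0 in all 7, including glucagon averaged over GW4064, where the calls among all genes went from 183 to 797, glucagon against DMSO (16 to 128) and both agents against DMSO (17 to 102). Quantile normalization, median centring, no filter (57 members), a filter on all 8 arrays (35 members), the mean of probe sets, trended and robust moderation and a fit of the compared groups alone also gave 0. With each array left out in turn the count for GW4064 against DMSO ranged from 0 to 1; the 1 was Cyp2c65 without the GW4064 array of experiment 1. With the block and without the GW4064 array of experiment 2, the member called for glucagon averaged over GW4064 was Cyp3a13, with a difference of -0.51. Block fits without each other array and with quantile normalization were added after the data had been seen. Of these, the fit without the GW4064 array of experiment 1 called 3 members for GW4064 against DMSO, 7 for glucagon averaged over GW4064 (Cyp2a4, Cyp2c23, Cyp2c39, Cyp2c55, Cyp2c65, Cyp3a16 and Cyp3a44) and 2 for the interaction (Cyp2a4 and Cyp2c65). In that fit GW4064 rests on the array of experiment 2 alone, which is assumed to vary like the other groups, and the cause was not tested. Cyp2c65 passed the filter on 2 arrays only, and that array was 1 of them. The members at least 1 unit apart without overlap between the experiments numbered 2, and 1 to 2 with an array left out: without either GW4064 array Cyp2c39 was at -0.93. With the mean of probe sets the number was 1, since Cyp2f2 was then at 0.99. With 2 arrays per group and 1 cell pool per experiment, small differences are not resolved and the experiments cannot be tested. Genes near the filter line have no sure signal over background.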

Other observations

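For some members a like sign in every pair of arrays was not described above. Cyp2j13, close to the filter line, was lower with glucagon in 4 of 4 pairs (difference -0.21, 95% interval -0.43 to 0.01), and Cyp2j6, a widely expressed epoxygenase, was lower with GW4064 in 4 of 4 (-0.21, -0.44 to 0.02). Cyp2j13 was also higher with GW4064 in 4 of 4 pairs, by 0.06 to 0.21. Cyp2d10 was higher with glucagon in 4 of 4, by 0.05 to 0.41. Cyp2r1 was lower with GW4064 in 4 of 4, by 0.06 to 0.48. The widest gaps of Cyp2d10 and Cyp2r1 were those with the GW4064 array of experiment 2. None of these members passed limma's test without or with the experiment as a block, and the share of all genes with like signs was not counted.

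For the interaction of the agents, the members with an unadjusted p below 0.05 were Cyp2c37 and Cyp3a59. Cyp2c37, an arachidonic acid epoxygenase, read 5.87, 5.48, 5.78 and 6.15 in experiment 1 (DMSO, glucagon, GW4064, both) and 6.34, 6.02, 5.45 and 6.09 in experiment 2. In each experiment glucagon alone lay below DMSO, and both agents lay above GW4064 alone. The interaction was 0.86 (SE 0.33, adjusted p = 1), and it was 0.69 without the GW4064 array of experiment 2, which stood apart. Cyp3a59 lay near the filter line, at 2.94 to 3.67, with an interaction of 0.71 (SE 0.27, adjusted p = 1).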
